A study of Mus musculus with 10 samples.

Results

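Genes that restrain G protein and calcium channel signaling were followed through depolarization in cortical cultures: Rgs2, Rgs3, Rgs4 and Rgs16, which encode regulators of G protein signaling, Gem, Rrad and Rem2, which encode small GTPases of the RGK family, and Rasd1, which encodes the Ras-related protein also called Dexras1. The 8 genes were chosen by name, and every Ensembl transcript that the annotation assigns to them was used. For 7 of them the counts listed a transcript, 13 transcripts in all of the 22534 listed, and Rgs16 is not analysed here. The cells came from cortices of P0 FVB mouse pups and were kept for 7 days as mixed neuron and glia cultures. Untreated cultures 1, 2 and 3 were compared with cultures 4 and 5, which received 55 mM KCl for 3 h, a treatment that depolarizes the membrane. All 5 cultures received cycloheximide, an inhibitor that stalls elongating ribosomes, for 7 min before harvest. From each lysate an RNAseq library and a ribosome footprinting (RF) library were made, so that the same culture gives both the abundance of a transcript and the number of ribosome-protected fragments on it. The labels do not say whether the cultures came from separate dissections, and p-values therefore measure the spread between these 5 cultures. Since whole cultures were lysed, a change in the share of a cell type and a change of RNA per cell cannot be told apart.

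Receptors that couple to heterotrimeric G proteins signal as long as the G alpha subunit holds GTP, and RGS proteins shorten that time by speeding up GTP hydrolysis. Rgs2 acts mainly on the Gq class, while Rgs3 and Rgs4 act on the Gi and Gq classes. RGK proteins bind the beta subunit of high-voltage-activated calcium channels and reduce the current through them, and Rasd1 can activate Gi proteins without a receptor. Depolarization opens those same calcium channels, and several of these genes are known in neurons as targets of activity-driven transcription.

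RNAseq libraries held 3056286 to 3629959 counted reads and RF libraries 1463654 to 7719915, with untreated culture 3 and KCl culture 4 the shallowest in RF. Levels are given as CPM, the usual unit of reads scaled to the total of the library, after correction by edgeR's TMM factors, for RNAseq from reads on the whole transcript and for RF from reads on its coding sequence (CDS). These factors ranged from 1.03 to 1.06 without KCl and from 0.929 to 0.948 with it. Use of library totals in their place shifted the median log2 fold change of all transcripts by -0.14 in RNAseq and -0.17 in RF, and moved the share of higher calls from 54.7% to 36% in RNAseq and from 52.7% to 30.3% in RF. Under both scalings the same members were called in RNAseq and in RF. Markers of neurons and of astrocytes were detected, and of the 6 neuron markers only Map2 had no listed transcript. The summed RNAseq level of 6 astrocyte markers lay between 9342 and 10357 CPM in untreated and between 8300 and 8675 CPM in KCl cultures, with 1 of the 6 called lower, and that of 3 fibroblast markers between 419 and 501 CPM and between 361 and 409 CPM, with 1 of 3 called lower. The 5 neuron markers summed to between 349 and 483 CPM untreated and between 447 and 449 CPM after KCl, and none of the 5 was called by edgeR in RNAseq (0 of 5 also at an unadjusted p under 0.05 and by DESeq2). Summed levels of 5 microglia markers (94.6 to 119 CPM untreated, 82.8 to 109 CPM after KCl), of 5 markers of the oligodendrocyte lineage (1042 to 1137 and 1017 to 1043 CPM) and of 3 endothelial markers (12.3 to 20.3 and 16.7 to 18.3 CPM) overlapped between the groups, with 1 microglia and 1 oligodendrocyte lineage marker called lower. In RF, 4 of 6 astrocyte, 3 of 5 microglia and 2 of 5 neuron markers were called higher by edgeR. So were 1 of 5 oligodendrocyte lineage and 1 of 3 fibroblast markers, while 1 microglia marker was lower. Among all transcripts 15.2% were called higher in RF and 13.6% lower. DESeq2 called 3 astrocyte, 2 microglia, 0 neuron, 1 oligodendrocyte lineage and 2 fibroblast markers in RF, in either direction. The fibroblast marker Col1a1 had a log2 fold change of -1.32 in RF (adjusted p 0.0001458 by DESeq2 but 0.0576 by edgeR). The part of these shifts in the results below was not tested.

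The 7 genes fell into 3 groups. Rgs2, Gem and Rem2 rose in RNA and footprints together. Rasd1 was called in footprints alone, and its RNA was too scarce for the main RNAseq test. Rgs3, Rgs4 and Rrad were not called in either assay. Where a gene had several transcripts, that with the most RNAseq reads on average represents it. A transcript was tested where its reads summed to at least 10 over the 5 libraries of an assay, and was called at an adjusted p under 0.05 in the quasi-likelihood test of edgeR with Benjamini-Hochberg adjustment over all transcripts tested. In RNAseq 3 of 6 tested genes were called, all higher after KCl, against a background of 21.7% of 19499 transcripts called (11.9% higher and 9.85% lower). In RF 4 of 7 tested genes were called, all higher, against 28.8% of 18799 transcripts (15.2% higher and 13.6% lower). For the change in translational efficiency (TE, the RF level over the RNAseq level) none of 6 tested genes was called, where 2.36% of 18284 transcripts were, and at an unadjusted p under 0.05 none of the 6 passed either. DESeq2 called none of the 6. By transcript, 4 of 12 tested were called in RNAseq, 6 of 12 in RF and 0 of 11 in TE. At an unadjusted p under 0.05 by edgeR 1 of the 11 passed in TE, where 2375 of 18284 transcripts did. Transcripts of a gene can count the same reads, as both Gem transcripts did, so these counts are not independent.

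**Figure D1:**
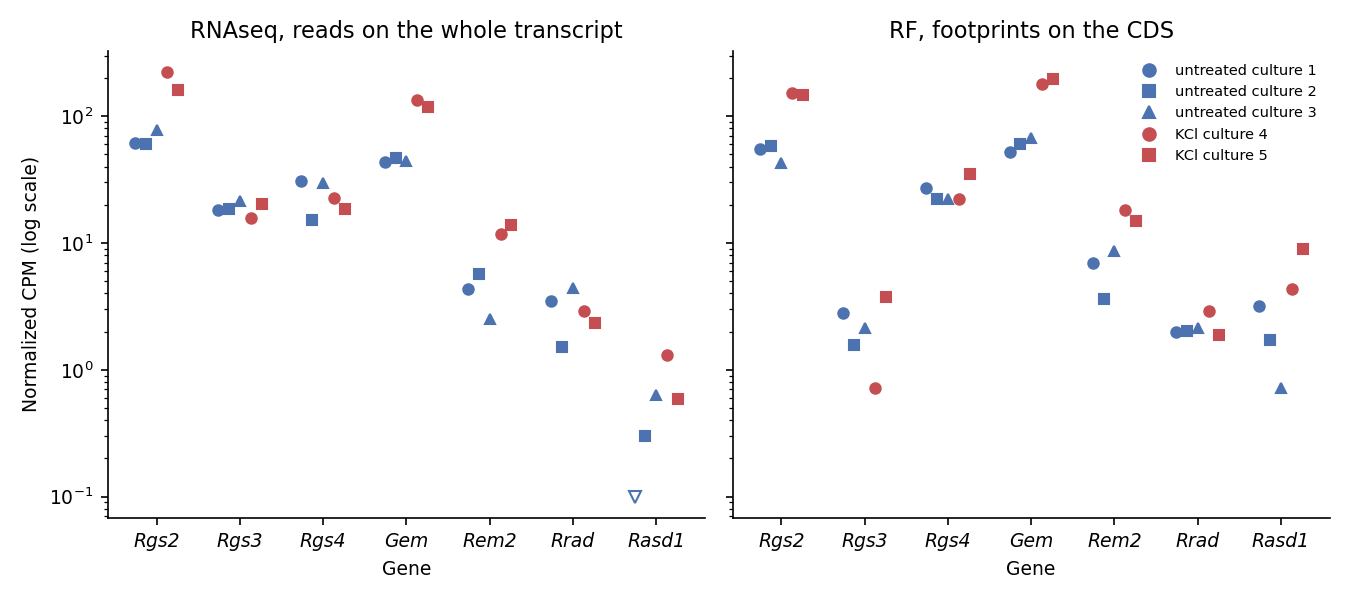
Normalized CPM (log scale) of the representative transcript of each gene in every culture, for RNAseq on the left and for RF on the CDS on the right; blue points are the 3 untreated and red points the 2 KCl cultures, and the open triangle marks a library with 0 reads, drawn at an arbitrary height. For Rgs2, Gem and Rem2 both KCl cultures lie above all 3 untreated cultures in both assays, while for Rgs3, Rgs4 and Rrad the groups overlap.

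Sequences upstream of the start are shown because Rgs2 was called and Rgs4, of the same family and on the same chromosome, was not. The table of RefSeq promoters (build GRCm38.p6) holds 5 of the 8 genes, Rgs2, Rgs3, Rgs4, Rgs16 and Rem2. Shown are the 250 bases before the start site of Rgs2 (chr1:144004150-144004399, minus strand), Rgs4 (chr1:169747643-169747892, minus strand) and Rem2 (chr14:54475850-54476099, plus strand). Capitals mark the core of the cAMP response element (TGACG, or CGTCA on the other strand) and the TATA box (TATAAA).
Rgs2: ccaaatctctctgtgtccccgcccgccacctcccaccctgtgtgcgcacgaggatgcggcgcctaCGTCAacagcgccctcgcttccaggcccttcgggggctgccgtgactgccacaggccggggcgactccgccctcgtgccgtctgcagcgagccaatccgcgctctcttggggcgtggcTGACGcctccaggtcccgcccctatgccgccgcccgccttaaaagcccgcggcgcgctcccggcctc
Rgs4: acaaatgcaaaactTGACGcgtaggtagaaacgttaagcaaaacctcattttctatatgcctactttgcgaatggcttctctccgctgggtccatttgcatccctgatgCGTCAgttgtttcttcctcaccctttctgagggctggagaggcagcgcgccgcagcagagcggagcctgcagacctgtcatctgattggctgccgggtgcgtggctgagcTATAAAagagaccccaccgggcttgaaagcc
Rem2: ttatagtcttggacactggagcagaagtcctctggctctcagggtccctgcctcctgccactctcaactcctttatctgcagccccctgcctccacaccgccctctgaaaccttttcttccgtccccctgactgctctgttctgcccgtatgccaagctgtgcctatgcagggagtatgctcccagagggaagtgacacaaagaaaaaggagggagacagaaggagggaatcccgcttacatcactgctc

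Both strands were also searched for the full cAMP response element (TGACGTCA, which contains the core), the AP-1 site (TGANTCA) and the CArG box of serum response factor. Rgs2 held the core at 185 and 67 bases before the start and Rgs4 at 236 and 141 bases before it, and 17.8% of 32851 promoters of the same length held at least 1. Rgs4 also had a TATA box 31 bases before the start, which 12.4% of promoters held somewhere in the window. The full element, the AP-1 site and the CArG box, held by 1.55%, 6.75% and 1.47% of promoters, matched in none of the windows of Rgs2, Rgs3, Rgs4, Rgs16 and Rem2, and Rem2 held none of the motifs. The core was present before Rgs2, which rose, and before Rgs4, which was not called, and a match of letters is a description of the window only.

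Rgs2 and Gem had the highest footprint levels of the members, with Gem above in CPM. The 1 listed Rgs2 transcript, ENSMUST00000127206 (GRCm38 chr1:143999338-144004161, minus strand, 5 exons), has a CDS of 633 bases and a 3′UTR of 2342 bases. In RNAseq its level was 61.8, 59.9 and 77.6 CPM in untreated cultures 1 to 3 and 223 and 160 CPM in KCl cultures 4 and 5. Both KCl cultures lay far above the untreated ones, with a mean of 191 ± 44.5 CPM (SD, n = 2) against 66.4 ± 9.71 CPM (SD, n = 3). The fitted log2 fold change was 1.53 (SE 0.15, 95% interval 1.23 to 1.83), a 2.88-fold rise, with an adjusted p of 9.948e-16 by edgeR. In RF the level was 54.6, 58.4 and 42.9 CPM untreated and 152 and 146 CPM after KCl. Footprints separated the groups as cleanly as the RNA did, with a log2 fold change of 1.47 (SE 0.13, 95% interval 1.21 to 1.72, adjusted p 3.174e-18 by edgeR). Of the footprints on Rgs2, between 95.6% and 100% were on the CDS in every RF library, while of its RNAseq reads between 72.3% and 79.9% were on the long 3′UTR.

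TE of Rgs2, taken per kb of CDS over per kb of transcript, was 4.21, 4.65 and 2.63 in the untreated cultures and 3.25 and 4.37 after KCl. The groups overlapped, and the log2 change in TE was -0.04 with a 95% interval of -0.46 to 0.38. Footprints on Rgs2 therefore rose by about as much as its RNA, within that interval. A mean untreated TE at the 79.3 percentile of 10377 genes placed Rgs2 above the median of 2.07.

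Gem, a GTPase of the RGK family whose mRNA is known to be induced by mitogens, also rose. Its representative transcript ENSMUST00000108304 (chr4:11704457-11714752, plus strand, 5 exons) was at 43.5, 46.7 and 44.0 CPM in untreated RNAseq libraries and at 133 and 117 CPM in the KCl libraries. The untreated cultures lay close together, and the rise to 125 ± 11.3 CPM (SD, n = 2) was 2.80-fold, with a log2 fold change of 1.48 (SE 0.16, 95% interval 1.17 to 1.80, adjusted p 8.791e-14 by edgeR). RF levels were 51.8, 60.2 and 67.1 CPM untreated and 179 and 198 CPM after KCl. The footprint rise was 3.25-fold, a log2 fold change of 1.70 (SE 0.12, 95% interval 1.46 to 1.94, adjusted p 1.57e-23 by edgeR), the highest RF estimate among the members, though its interval overlapped those of Rgs2, Rem2 and Rasd1. TE was 2.70, 2.92 and 3.46 untreated and 3.04 and 3.82 after KCl. Its log2 change of 0.20 (95% interval -0.24 to 0.63, adjusted p 0.795 by edgeR) was within the spread of the cultures.

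Gem is listed with 2 transcripts that differ in their 5′UTR. Each has a CDS of 885 and a 3′UTR of 999 bases, the authors' counting kept reads that match several transcripts, and each footprint on the CDS was counted on both, so that their CDS counts were identical in every RF library. Only the 5′UTR tells them apart. The last 27 bases before the start codon and the start codon itself are shown because they hold the point at which the transcripts diverge, with the 9 shared bases and the ATG in capitals.
ENSMUST00000029868: tactgctctgattcctagGATCCCGCAATG
ENSMUST00000108304: agcgcccagtgcagccaaGATCCCGCAATG

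On the 119-base 5′UTR of ENSMUST00000108304 there were 43, 44 and 10 footprints without KCl and 25 and 31 with it. The 107-base 5′UTR of ENSMUST00000029868 had 1 footprint in untreated culture 3 and 0 in the other 4 libraries, where a count of 0 allows up to 3. RNAseq gave the same picture with few reads, 2, 4 and 1 untreated and 6 and 5 after KCl on the first and 0 in all 5 libraries on the second. Footprints were detected on the leader of ENSMUST00000108304 and, beyond a single read, not on the other. Normalized to library size, its 5′UTR footprints were 5.73, 6.89 and 7.14 CPM untreated and 18.1 and 11.6 CPM after KCl, both KCl cultures above the untreated ones. Density on this leader was between 0.753 and 0.852 of that on the CDS in 4 of the 5 libraries and 0.438 in KCl culture 5. This leader contains no ATG, whereas 51.8% of 11118 genes have at least 1 ATG in the 5′UTR. The leader of ENSMUST00000029868 has 1, which lies 96 bases before the start codon and reaches a stop after 8 codons.

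**Figure D2:**
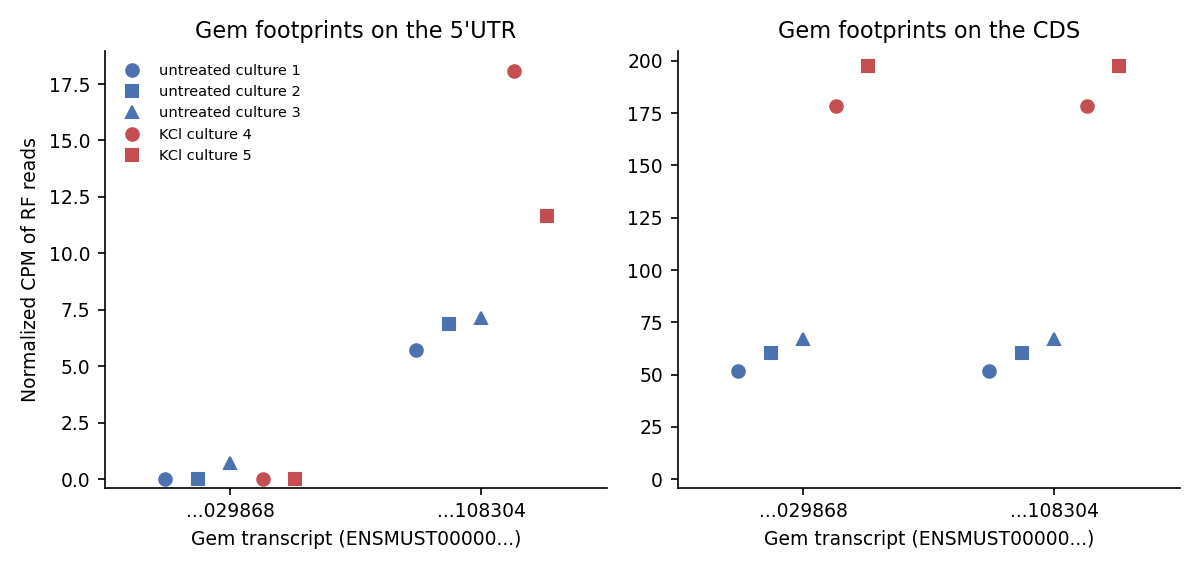
RF reads in normalized CPM on the 5′UTR (left) and CDS (right) of the 2 Gem transcripts, 1 point per culture, blue for untreated and red for KCl. The CDS values of the 2 transcripts are the same reads counted on both, while 5′UTR footprints reach 18.1 CPM on ENSMUST00000108304 and stay at or below 0.714 CPM on ENSMUST00000029868.

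Rem2, the RGK member known for its expression in neurons, rose from a much lower level. Its representative transcript ENSMUST00000164766 (chr14:54476100-54480431, plus strand) had between 8 and 19 reads in untreated and between 36 and 47 reads in KCl RNAseq libraries. These correspond to 4.35, 5.72 and 2.53 CPM and to 11.7 and 13.8 CPM. Low as the counts were, the groups did not overlap, and the log2 fold change was 1.59 (SE 0.38, 95% interval 0.85 to 2.33, adjusted p 0.0005531 by edgeR). Footprints on the CDS were at 6.93, 3.60 and 8.57 CPM untreated and 18.1 and 15.0 CPM after KCl. Again both KCl cultures were above all untreated ones, with a log2 fold change of 1.49 (SE 0.31, 95% interval 0.87 to 2.10, adjusted p 6.698e-05 by edgeR). TE ranged from 1.16 to 6.23 among the untreated cultures, which is wider than any difference from the KCl cultures at 2.84 and 2.01. The log2 change in TE was -0.08, and changes within its 95% interval of -1.06 to 0.91 were not detectable at this depth. With RNAseq reads of the CDS alone it was -1.01 (adjusted p 0.705 by edgeR).

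A shorter Rem2 transcript, ENSMUST00000164697, had 23 RNAseq reads over the 5 libraries against 125 on the first. Its log2 fold change was 1.77 in RNAseq (95% interval 0.03 to 3.50, adjusted p 0.146 by edgeR), which was not called, and 1.60 in RF (adjusted p 0.002352 by edgeR), which was. Both Rem2 transcripts overlap on the chromosome, and the authors' counting kept reads that match several transcripts. The same footprints may therefore be counted on both. The 5′UTR of the representative transcript has 4 upstream ATG codons, more than any other representative transcript of the members. The one nearest to the start lies 10 bases before it, out of frame, and meets no stop before the CDS begins, and it is shown with the ATG in capitals.
Rem2 upstream ATG: cactcgcacATGcacgccgatgcacacgga

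Few footprints fell on that leader, 0, 6 and 1 without KCl and 0 and 1 with it, too few for a comparison between groups.

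Rasd1 was the scarcest transcript. On ENSMUST00000062405 (chr11:59963181-59964944, minus strand), 9 RNAseq reads were counted over all 5 libraries. This is under the minimum for a test, so neither its RNA nor its TE was tested in the main fits. In the alternative with no filter beyond 1 read both were tested, and neither was called. There were nevertheless 66 CDS footprints, 24, 11 and 1 without KCl and 6 and 24 with it. Scaled to the depth of each library these were 3.20, 1.72 and 0.714 CPM untreated and 4.34 and 9.01 CPM after KCl. Both KCl cultures were above the untreated ones, and the log2 fold change was 1.64 (SE 0.46, 95% interval 0.72 to 2.56, adjusted p 0.003708 by edgeR). This call rests on KCl culture 5, without which the log2 fold change was 0.93 with an adjusted p of 0.516 by edgeR. DESeq2 gave 1.70 with an adjusted p of 0.0684, which was not past the threshold.

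Rgs4, which in brain is among the well-studied RGS genes, was not called. Its transcript ENSMUST00000027991 (chr1:169741477-169747642, minus strand) was at 30.8, 15.1 and 29.5 CPM in untreated RNAseq libraries and at 22.5 and 18.5 CPM after KCl, so that the KCl cultures lay inside the untreated range. In RF it was at 27.03, 22.2 and 22.1 CPM untreated and at 22.4 and 35.3 CPM after KCl. The log2 fold changes were -0.30 in RNAseq (95% interval -0.79 to 0.20, adjusted p 0.443 by edgeR) and 0.31 in RF (95% interval -0.09 to 0.71, adjusted p 0.264 by edgeR), so a rise as large as that of Rgs2 lies outside both intervals. TE was 4.20, 7.06 and 3.59 untreated and 4.76 and 9.14 after KCl, with a log2 change of 0.52 (95% interval -0.14 to 1.18). A second transcript, ENSMUST00000111357, has 4 exons in place of 5 and a CDS of 279 bases. Its log2 change in TE was 0.84 (95% interval 0.01 to 1.67), at an unadjusted p of 0.0472 and an adjusted p of 0.373 by edgeR, and was not called. The authors' counting let both Rgs4 transcripts count the same reads.

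Rgs4 had the highest mean untreated TE of the 6 members tested for TE, at the 86.8 percentile of 10377 genes, and its 119-base leader carried 23, 11 and 2 footprints without KCl and 1 and 9 with it. The neighboring Rgs5, 45.7 kb away on the chromosome, was not called in RNAseq (log2 fold change -1.24, SE 0.67, adjusted p 0.19 by edgeR). Rgs13, 134.5 kb from Rgs2, had no listed transcript.

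For Rgs3 the counts listed 4 transcripts over a long locus (chr4:62559847-62703018, plus strand), which the antisense gene Gm11209 overlaps over 6036 bases. The sources used here do not say whether reads were counted by strand. Within that overlap, reads of Gm11209 therefore cannot be told apart from those of Rgs3. Its representative transcript ENSMUST00000084521 was at 18.3, 18.7 and 21.5 CPM in untreated RNAseq libraries and at 15.6 and 20.2 CPM after KCl. The groups overlapped, with a log2 fold change of -0.11 (95% interval -0.63 to 0.40). Nearly all of these reads were on the 3′UTR. Between 45 and 65 reads per library fell on its 773 bases and between 3 and 5 on the CDS of 2898 bases. This 3′UTR is outside the overlap, since ENSMUST00000107420, which shares it, starts at 62674039 and Gm11209 ends at 62633712. CDS footprints numbered 21, 10 and 3 without KCl and 1 and 10 with it, which is too few to separate the groups, and the log2 fold change in RF was 0.26 (95% interval -0.96 to 1.48). An untreated TE of 0.150 on this transcript, at the 0.626 percentile of 10377 genes, was the lowest of the representative transcripts tested for TE. This TE sets footprints on the CDS against RNAseq reads that were mostly outside it. ENSMUST00000107420 shares that 3′UTR, with the same 45 to 65 reads, but 0 RNAseq reads and 0 footprints were listed on its CDS in every library, and no footprint test was made for it. The authors aligned to a transcriptome from which degenerate sequences had been removed, and the part of that step in these zeros was not tested. The other 2 transcripts, ENSMUST00000065870 and ENSMUST00000107424, ended in a different 3′UTR, had between 8 and 11 RNAseq reads per library and were not called in either assay. Untreated, they stood at 1.84 and 1.97 CPM per kb in RF and at 0.577 and 0.664 CPM per kb in RNAseq. Their footprint level was thus above their RNA level, and the low TE is that of the representative transcript, not of every Rgs3 transcript.

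Rrad, the RGK gene best known from muscle, was barely expressed. ENSMUST00000034351 (chr8:104628070-104631327, minus strand) was at 3.48, 1.51 and 4.43 CPM in untreated RNAseq libraries and at 2.93 and 2.35 CPM after KCl. In RF it was at 2.00, 2.04 and 2.14 CPM untreated and at 2.89 and 1.88 CPM after KCl, so the groups overlapped in both assays. The log2 fold changes of -0.25 in RNAseq and 0.14 in RF had 95% intervals of -1.46 to 0.96 and -1.15 to 1.44, and changes within those intervals were not detectable at this depth. Its 5′UTR of 272 bases carried 7, 9 and 2 footprints without KCl and 0 in both KCl libraries, where 0 allows up to 3 each. No RNAseq read was counted on that leader in any library. With footprints of all regions in place of the CDS, the log2 fold change in RF was -0.54 (adjusted p 0.545 by edgeR). The antisense gene Gm33023 overlaps the 5′ end of Rrad over 496 bases, and its part in these footprints was not tested.

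**Figure D3:**
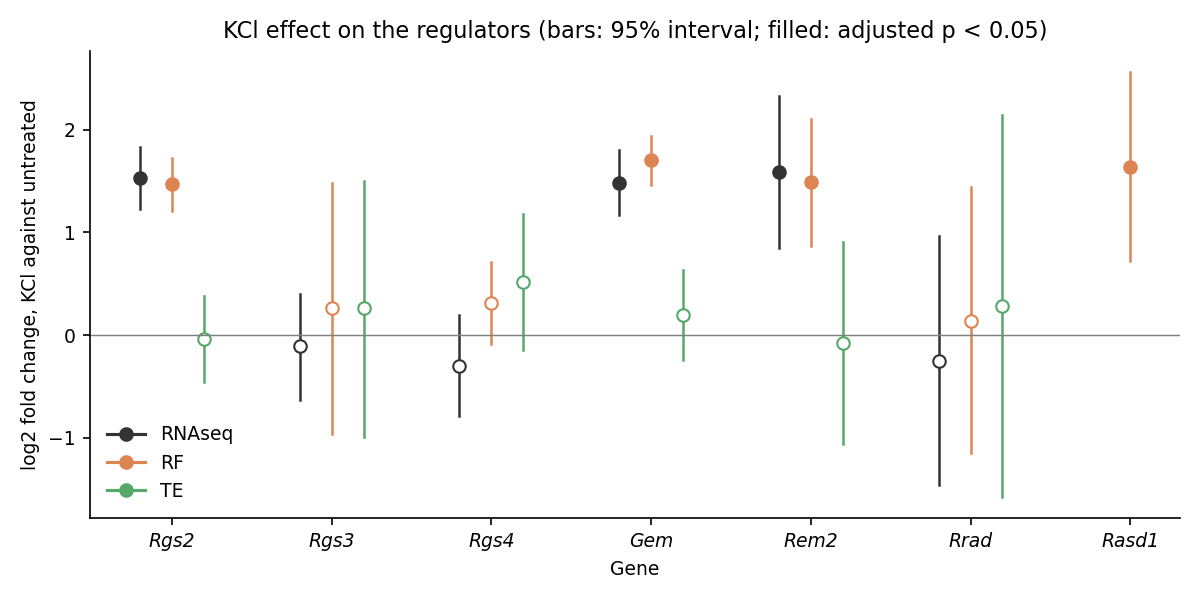
Fitted log2 fold change of KCl against untreated cultures for each gene in RNAseq (black), RF (orange) and TE (green), with 95% intervals as bars; filled points passed an adjusted p of 0.05 and open points did not. RNAseq and RF lie between 1.47 and 1.70 for Rgs2, Gem and Rem2, and all 6 TE intervals include 0.

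Levels per kb order the representative transcripts of the members in untreated cultures. In RNAseq Gem stood at 22.3 ± 0.840 CPM per kb and Rgs2 at 22.0 ± 3.21 (SD, n = 3), a pair that differed by less than its spread. Rgs4 followed at 8.53 ± 2.96 and Rgs3 at 5.02 ± 0.458. Rgs4 was above Rgs3 within each untreated culture, but its 5.12 in culture 2 was below the 5.54 of Rgs3 in culture 3. Then came Rem2 at 2.23 ± 0.849 and Rrad at 1.99 ± 0.948, which again did not differ beyond their spread. Rasd1 came last at 0.193 ± 0.197 CPM per kb. By RF on the CDS the order was Rgs2 at 82.1 ± 12.8 and Gem at 67.4 ± 8.67 CPM per kb, whose values overlapped, then Rgs4 at 38.7 ± 4.55 and Rem2 at 6.22 ± 2.47. Rrad and Rasd1, both at 2.24 CPM per kb, could not be ordered, and Rgs3 was last at 0.748 ± 0.212. That place holds for its representative transcript, since Rgs3 transcripts ENSMUST00000065870 and ENSMUST00000107424 stood at 1.84 ± 0.27 and 1.97 ± 0.45. Among 10377 genes with both assays measured, Gem and Rgs2 were at the 80.1 and 79.8 percentile of RNAseq level and at the 87.2 and 89.5 percentile of RF level. Rem2 (20.9 in RNAseq, 29 in RF) and Rrad (19.1 and 11.5) were in the lower part of both. The members that rose therefore came from the lower and from the upper part of the expression range.

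**Figure D4:**
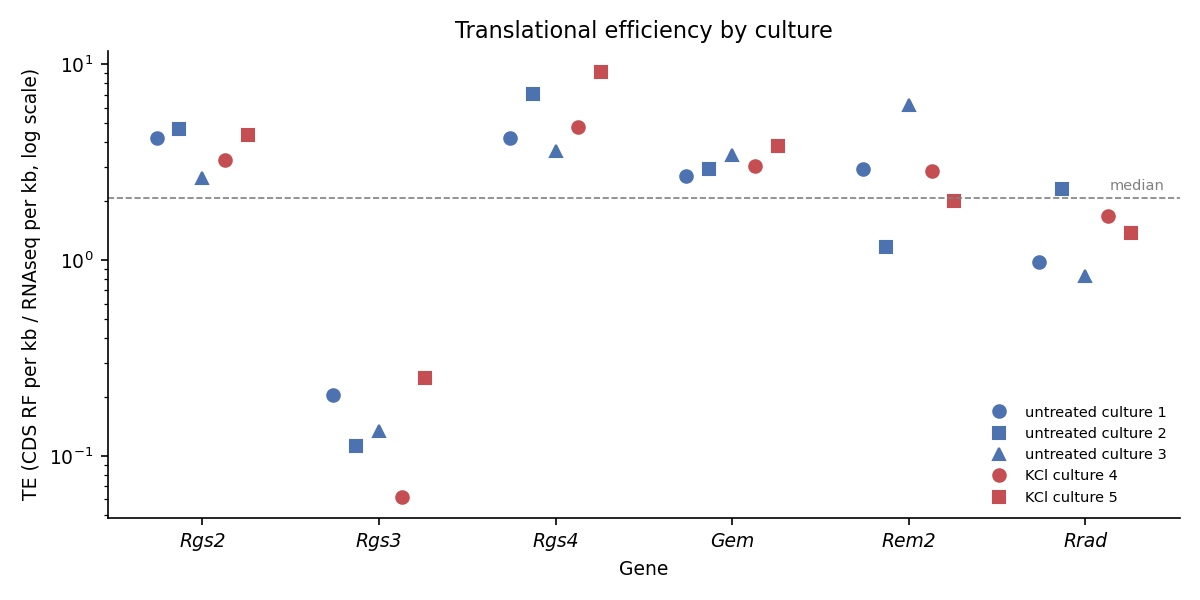
TE of 6 members in every culture (CDS RF level per kb over RNAseq level per kb, log scale), blue for untreated and red for KCl cultures; the dashed line is the median untreated TE of 10377 genes, 2.07. For no gene do both KCl cultures lie above or both below all 3 untreated cultures, and the representative Rgs3 transcript sits far below the median.

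The 3′UTRs of these transcripts were searched for ATTTA, the core of the AU-rich element, which is known for its link to short-lived mRNAs, and for the longer TATTTAT that contains it. Of 11118 genes 69.1% held at least 1 ATTTA and 29.4% at least 1 TATTTAT. Gem held 4 ATTTA in 999 bases (4.00 per kb, the 89.4 percentile) and 3 TATTTAT, the 96.1 percentile. Rgs2 held 5 ATTTA (2.13 per kb, 67.9 percentile), Rem2 1 (1.46 per kb, 54.4 percentile) and Rasd1 2 (3.18 per kb, 82.5 percentile). Rgs4 held 1 in 2204 bases (0.454 per kb, 32.8 percentile), Rgs3 2 and Rrad none. The longer TATTTAT occurred 1 time each in Rgs4 and Rgs3 (70.6 percentile), which were not called. It was absent from Rgs2, Rem2 and Rasd1, which were called, and from Rrad. Windows of 30 bases are shown from the 3′UTRs of the 3 members with the highest untreated RNAseq level per kb, with ATTTA in capitals.
Gem: ttatATTTAttattttgcaaataaccattt
Rgs2: gtttttgaatacttttaataaATTTAtttt
Rgs4: atttctcatttgtgttATTTAtgatgtttt

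By density the called genes were spread from the 54.4 to the 89.4 percentile and those not called from 0 (Rrad) to 75.2 (Rgs3), so the ranges overlapped.

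The partners of these regulators were read against the same background, 21.7% of transcripts called in RNAseq and 28.8% in RF. Of 19 other genes with an Rgs symbol 12 were tested and none was called by edgeR, with a median log2 fold change of -0.03 where that of all transcripts was -0.02. At an unadjusted p under 0.05 by edgeR 5 of the 12 passed, where 6306 of 19499 transcripts did, and DESeq2 called 0. In RF 1 of 11 was lower (Rgs20, -0.75, SE 0.16, adjusted p 0.0001003 by edgeR). Rem1, a further RGK gene, and Rasd2, a relative of Rasd1, had too few RNAseq reads for a test. Rasd2, at a log2 fold change of 1.54 (SE 1.07, adjusted p 0.302 by edgeR), was not called in RF. Of 12 tested genes of G alpha subunits, 2 were higher and 1 was lower in RNAseq, near the background share, with a median log2 fold change of 0.24. Gna14, a Gq-class subunit, was at 5.68 ± 2.33 CPM (SD, n = 3) untreated and 0.896 ± 0.806 CPM (SD, n = 2) after KCl, and it fell in RNAseq (log2 fold change -2.58, SE 0.65, adjusted p 0.001348 by edgeR) and in RF (-2.40, SE 0.74, adjusted p 0.007986 by edgeR, but 0.0845 by DESeq2). Its RNAseq call was lost without KCl culture 4 (log2 fold change -1.93, adjusted p 0.0768 by edgeR). Gna13, a G alpha subunit of the G12 class, rose in RNAseq from 191 ± 7.18 to 262 ± 4.32 CPM (log2 fold change 0.45, SE 0.14, adjusted p 0.008114 by edgeR) and had a log2 fold change of -0.06 in RF, with an adjusted p of 0.235 for the change in TE by edgeR. Its call was lost without KCl culture 4 or 5 (adjusted p 0.107 and 0.0712) and with library totals (adjusted p 0.0789). Gnai1, a Gi subunit, had a log2 fold change of 0.49 (SE 0.18, adjusted p 0.0366 by edgeR), and its call was lost under 6 of 13 alternatives, with adjusted p between 0.0239 and 0.55 over all 13. In RF, Gnai3 was called higher (0.43, adjusted p 0.0005329 by edgeR) and Gna12 lower (-0.90, adjusted p 0.0432), and Gna12 was also the 1 G alpha gene called in TE (-1.18, adjusted p 0.0483), both named after their values were seen. DESeq2 also called Gnai3 in RF (adjusted p 0.00484) but not Gna12 in RF (0.198) or TE (0.124).

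Among 9 tested genes of G beta and G gamma subunits only Gnb1 was called, higher at 574 ± 13.01 CPM (SD, n = 2) against 394 ± 13.15 CPM (SD, n = 3), a log2 fold change of 0.54 (SE 0.13, adjusted p 0.0007375 by edgeR) that passed under all 13 alternatives. In RF 1 of 7 was called, Gnb2 (0.42, adjusted p 0.0001368 by edgeR), which was named after its value was seen. Of 11 tested genes of high-voltage-activated calcium channels, the targets of the RGK proteins, only Cacna1e, which encodes the pore of the R-type channel, was called in RNAseq. It was at 12.1 ± 5.52 CPM untreated and 20.97 ± 3.53 CPM after KCl (log2 fold change 0.77, SE 0.28, adjusted p 0.0344 by edgeR), and the call was lost under 7 of 12 alternatives. In RF the L-type pore gene Cacna1d was lower (-1.03, SE 0.32, adjusted p 0.007808 by edgeR, but 0.0745 by DESeq2), which was named after its value was seen. The beta subunits that RGK proteins bind, Cacnb1 to Cacnb4, had log2 fold changes between 0.08 and 0.38 in RNAseq and were not called. None of 11 channel genes was called in TE by edgeR, and 0 were called by DESeq2. At an unadjusted p under 0.05 by edgeR 1 of the 11 passed, where 2375 of 18284 transcripts did.

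**Figure D5:**
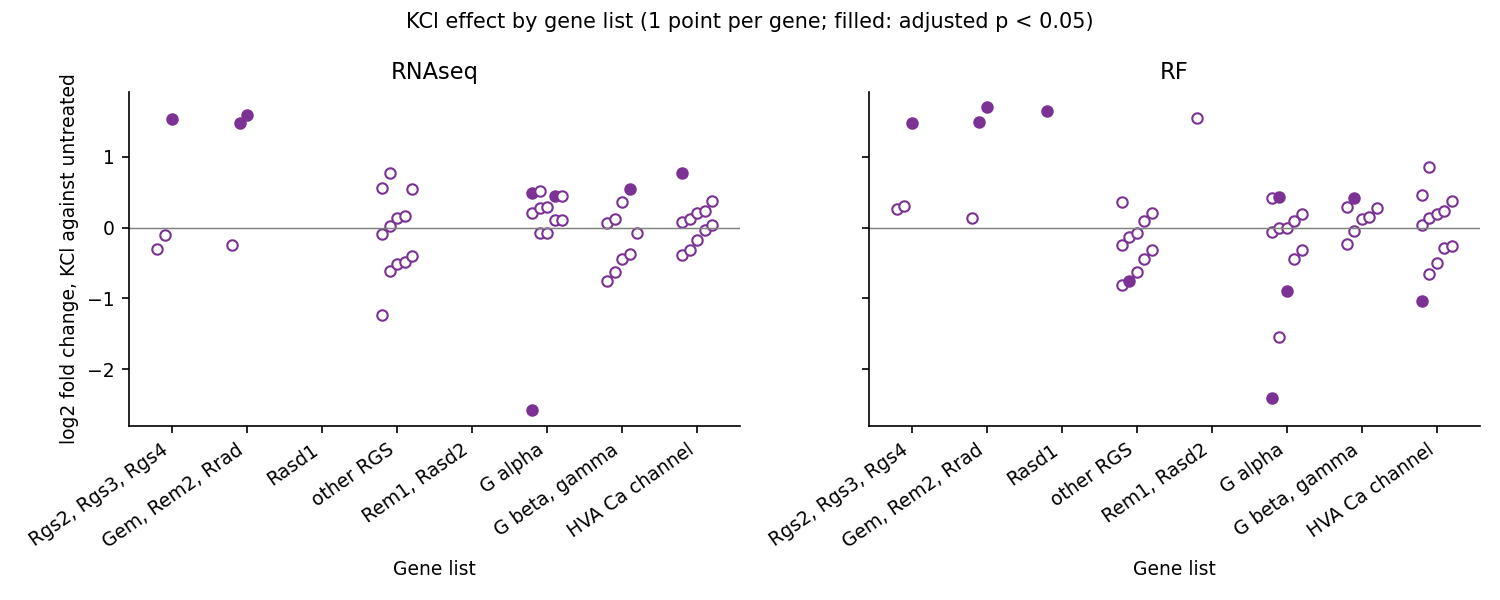
Log2 fold change of KCl against untreated cultures in RNAseq (left) and RF (right), 1 point per gene, for the members and for the lists of other RGS genes, Rem1 and Rasd2, G alpha, G beta and gamma subunits and high-voltage-activated (HVA) calcium channel subunits; filled points passed an adjusted p of 0.05. Rgs2, Gem and Rem2 stand at 1.47 or higher in both panels, above every gene of the other lists but Rasd2, which stands at 1.54 in RF and is open; the next highest value is 0.86.

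Across the whole data, the transcripts most like a called member were found by the distance of log2 levels over the 10 libraries, each assay centered on its untreated mean, among 5650 candidate genes. Fgfr1op (distance 0.338), Stard4 (0.423) and Ier2 (0.433) lay closest to Gem. Zfp207 (0.416), Tspyl1 (0.479) and Fgfr1op (0.487) were closest to Rgs2, so that Gem and Rgs2 shared 1 of 3 neighbors. The nearest to Rem2 were 1700017B05Rik (0.810), Zfp142 (0.835) and Rnf185 (0.858). The distances to Rem2, which has few reads, were larger than those to Gem and Rgs2. Log2 fold changes of the 3 genes nearest to Gem were between 1.51 and 1.60 in RNAseq and between 1.61 and 1.77 in RF. Because the distance includes the KCl libraries, fold changes close to those of Gem follow from how these genes were chosen.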

How the data were processed

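RNAseq and RF libraries of 3 untreated and 2 KCl-treated cultures were used, grouped by their labels. Culture numbers pair the assays since both came from 1 lysate. The counts themselves do not show this pairing, as the correlation of same-culture deviations between the assays was only -0.109 to 0.0592. A further KCl replicate, removed by the authors for low library size, is not analysed here. Per the methods and the submitters' processing notes, the authors trimmed reads with Trimmomatic 0.32, removed rRNA with STAR 2.3.1z8, aligned to an mm10 transcriptome with Bowtie2 2.2.2, kept reads that match several transcripts, and counted with bedtools 2.20.1. They deposited counts per transcript region without normalization. The regions carry letters, read here as 5′UTR, CDS, an unnamed region and 3′UTR. Of 22534 transcripts, 22172 (98.4%) matched GENCODE annotation of GRCm38.

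Counts were tested with edgeR 4.0.16 (R 4.3.3): quasi-likelihood fits with robust dispersions, TMM within each assay, at least 10 reads summed over 5 libraries, Benjamini-Hochberg adjustment over all transcripts. The methods' minimum of RPKM 10 was an alternative, because most of these genes fall under it. Changes in TE were tested as a treatment by assay interaction that also fits each culture. SE is the absolute log2 fold change over the square root of F, an approximation. Scripts were tested on simulated data. Alternatives were DESeq2 1.42.0, library totals, other filters, summed or single transcripts, other regions, other fits and leaving out each culture. Members, lists and the rule for other named genes (up to 2 rises and 2 falls per list among called genes with separate groups in RNAseq, and the 3 nearest to each called member) were chosen with earlier results of these data known. The genes nearest to Rasd1 are not reported here. Figures were drawn with matplotlib 3.10.9.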

Additional observations from a re-analysis of the deposited data

Results flagged for a closer look

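Footprints on a 5′UTR were not tested on their own. On the 5′UTR of Gem transcript ENSMUST00000108304 the mean was 14.86 CPM in the KCl cultures and 6.587 CPM in the untreated cultures, on 153 reads over the 5 libraries, and both KCl cultures were above all 3 untreated ones. This is a signal in a region that the comparisons leave out, and the difference was not tested.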

How the results depend on the processing

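Rgs2 and Gem were called higher in RNAseq and RF under every alternative that tested them, and Rem2 under every one that kept it, since a minimum RPKM of 10 left 3 members and dropped Rem2. No member was called in TE under any alternative, the fit without the replicate block included, which gave 392 calls over all transcripts against 432. At RPKM 10 the number of transcripts called fell to 2447 (RNAseq) and 3001 (RF) of 7373 tested, a larger share than in the main fits, and was 426 in TE. Calls also fell, to 2567, 3198 and 274 (TE), with 1 transcript per gene, and to 2253, 2807 and 163 with reads summed per gene. DESeq2 called 3179 in RF and 169 in TE, and CDS reads for RNAseq gave 250 in TE; the cause was not tested. Leaving out 1 culture gave 2464 to 4562 calls in RNAseq, 2424 to 5560 in RF and 51 to 585 in TE, lowest without KCl culture 4 (RNAseq 2464, RF 3310, TE 108) or 5 (2610, 2424, 51). Only values that were not called changed sign. Rrad went to -0.03 (library totals) and -0.54 (all regions) in RF and to -0.04 (CDS reads) in TE. Without 1 culture, values spanned -0.32 to 0.06 (Rgs3) and -0.58 to 0.07 (Rrad) in RNAseq, -1.56 to 0.76 (Rgs3), -0.11 to 0.54 (Rgs4) and -0.11 to 0.51 (Rrad) in RF, and -0.71 to 0.30 (Rem2), -0.25 to 0.17 (Rgs2), -1.28 to 0.68 (Rgs3) and -0.01 to 0.93 (Rgs4) in TE. With few reads on Rem2, Rrad, Rgs3 and Rasd1 and 2 KCl cultures, their intervals are wide.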
